A study of Mus musculus with 4 samples.

Results

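Monolayers of adherent cells from mouse spleen were measured on 2 of the 4 arrays of a study of compact colonies that such cultures can form. Both monolayers served as control cells, and the comparison sets the column labelled Pl_med against the column labelled Pl_med_v2, gene by gene, with 1 array a side. Both came from C57BL/6J spleen that was divided into 6 pieces and cultured in plain medium, which was RPMI with 5% fetal bovine serum, changed every 2 to 3 days. Neither control carried any further agent, and the labels give no sex or age of the animals. Pl_med was the reference of colony cells moved, once colonies began to form, to a medium for embryonic stem (ES) cells that holds no serum, and Pl_med_v2 was the reference of colony cells kept in plain medium. The colony cells, called SACCs, were measured on 1 array each and are given beside the monolayers. The 2 monolayer labels differ only in a version number. The comparison describes how far apart the arrays of these like-labelled control cultures lay in genes of cell mix and of division. The arrays also come from separate deposited tables.

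Cells that migrate out of spleen pieces and attach are mostly macrophages and mesenchymal stroma. Spleen macrophages clear old red cells and recycle their iron, and in culture they divide in response to Csf1 and can fuse. The stroma of the spleen (fibroblasts, reticular cells, pericytes and smooth muscle) makes matrix, chemokines and growth factors, among them Csf1 itself. Lymphocytes and red cell precursors, which fill the organ, attach poorly. Division genes switch on in a fixed order through the cell cycle, first those of DNA replication and then those of mitosis.

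Values are log2 expression after quantile normalization over the 4 arrays, on which the median probe set had 4.45 on each array. A difference is the Pl_med value minus the Pl_med_v2 value, so a difference of 1 is a 2-fold higher signal on Pl_med. Such a difference is called 2-fold without a test, because each side is 1 array and no error between replicates can be had. Each gene is given by its brightest probe set over the 4 arrays. Of 19747 genes, 774 were at least 2-fold higher on Pl_med (3.92%) and 789 at least 2-fold lower (4%). This split depended on scaling: it was 1027 higher and 622 lower with the values as deposited, whose median difference was 0.2, and 488 higher and 1148 lower with each array centred on its median. At 4-fold there were 58 genes higher (0.294%) and 90 lower (0.456%). The median difference of all genes was 0.0071. The shares of 3.92% higher and 4% lower are the background of each list count at 2-fold below.

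Correlations were taken on the values as deposited, before the joint normalization. Over all probe sets the 2 monolayers correlated at 0.959 (Pearson). Each was closer to the SACC array in its own deposited table, at 0.967 for Pl_med and 0.972 for Pl_med_v2, and the SACC arrays correlated at 0.970 with each other. The difference between the SACC arrays (ES medium minus plain medium) is given beside the monolayer difference for this reason. Of the 789 genes lower on Pl_med, 229 (29%) were also 2-fold lower on the SACC array of the same table, and 24 were 2-fold higher there. Of the 774 genes higher on Pl_med, 168 (21.7%) were also 2-fold higher there, and 13 were 2-fold lower. Over all genes 3.23% were 2-fold higher and 2.52% 2-fold lower between the SACC arrays. Culture, animal, table and array processing differ together between the monolayers and cannot be told apart.

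**Figure D1:**
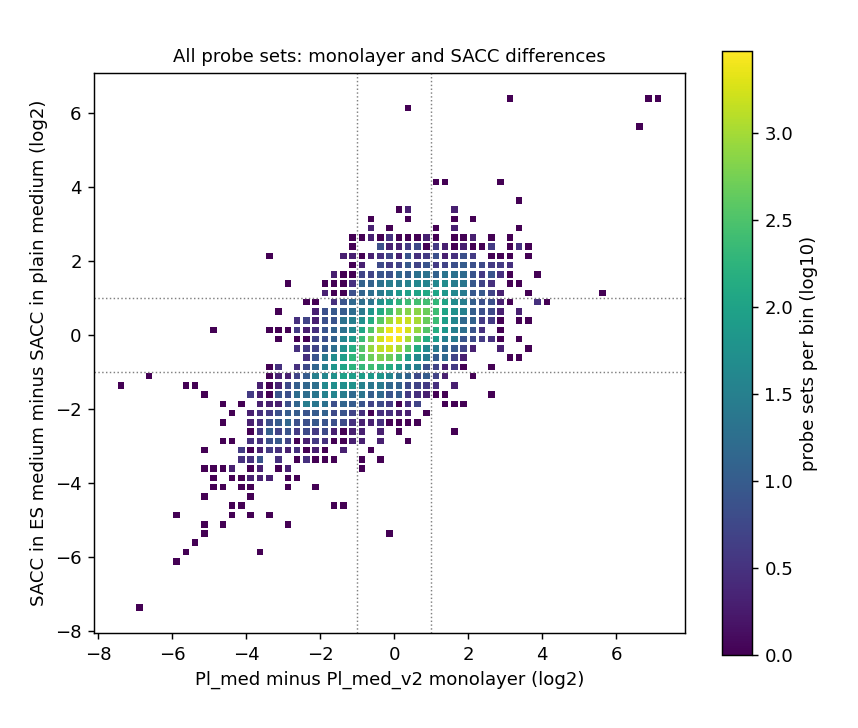
Differences of all probe sets, with Pl_med minus Pl_med_v2 (log2) on the x axis, SACC in ES medium minus SACC in plain medium (log2) on the y axis, and the number of probe sets per bin as colour on a log10 scale. Dotted lines mark 2-fold. The arm at the lower left holds most of the 641 probe sets at least 4-fold lower on Pl_med, of which 554 (86.4%) were also at least 2-fold lower between the SACC arrays.

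Probe sets of the same gene did not always differ alike between the monolayers. Of the 641 probe sets at least 4-fold lower on Pl_med, which are 1.42% of 45037, 510 were not the probe set that represents their gene. Of all probe sets 36109 carry 1 symbol, and 19747 of these represent a gene. The representing probe set is the brightest over the 4 arrays, which disfavours a probe set that is low on Pl_med. The count of 510 alone does not tell how the other probe sets of those genes differed. Sec61a1, a subunit of the channel through which secreted proteins enter the endoplasmic reticulum, was chosen after its values were seen as an example. Its brightest probe set had 10.97 on Pl_med and 10.50 on Pl_med_v2. A dimmer one had 3.96 on Pl_med and 8.29 on Pl_med_v2, and it differed by -3.87 between the SACC arrays too. Of 5546 genes with several probe sets above the array median, 876 had differences that spanned more than 2 on the log2 scale. Among genes 2-fold higher on Pl_med, 422 had several such probe sets, and in 61 of them every one was 2-fold higher. Among genes 2-fold lower, 264 had several, and in 67 every one was 2-fold lower. Where probe sets of opposite sign accompany a 2-fold difference of a named gene, that is stated. Acta2, Ccnd1, Cdc20, Cdh5, Cdkn1a, Col3a1, Csf1r, Eng, Gbp2 and Pdgfra, within 2-fold by their brightest probe set, also had probe sets of both signs. The cause of this disagreement was not tested.

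Xist and 3 of 4 Y-linked genes were among the 15 highest and 15 lowest differences. Xist, the RNA that coats the inactive X chromosome and is made in female cells, had 11.45 on Pl_med and 4.60 on Pl_med_v2. Ddx3y, an RNA helicase encoded on the Y chromosome, had 2.15 on Pl_med and 9.11 on Pl_med_v2. Eif2s3y, a Y-linked translation factor, had 2.02 on Pl_med and 7.31 on Pl_med_v2. Kdm5d and Uty, Y-linked histone demethylases, were lower on Pl_med by differences of -4.22 and -1.58, while the other Kdm5d probe sets, below the array median on both, differed by -0.41 and 0.07. Pl_med thus carried the pattern of female cells and Pl_med_v2 that of male cells. The SACC array of each table followed its control: Xist had 10.50 on the SACC array in ES medium and 4.21 on that in plain medium, and Ddx3y had 2.02 in ES medium and 9.40 in plain medium. This sex-linked pattern differs together with every other difference given here.

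**Figure D2:**
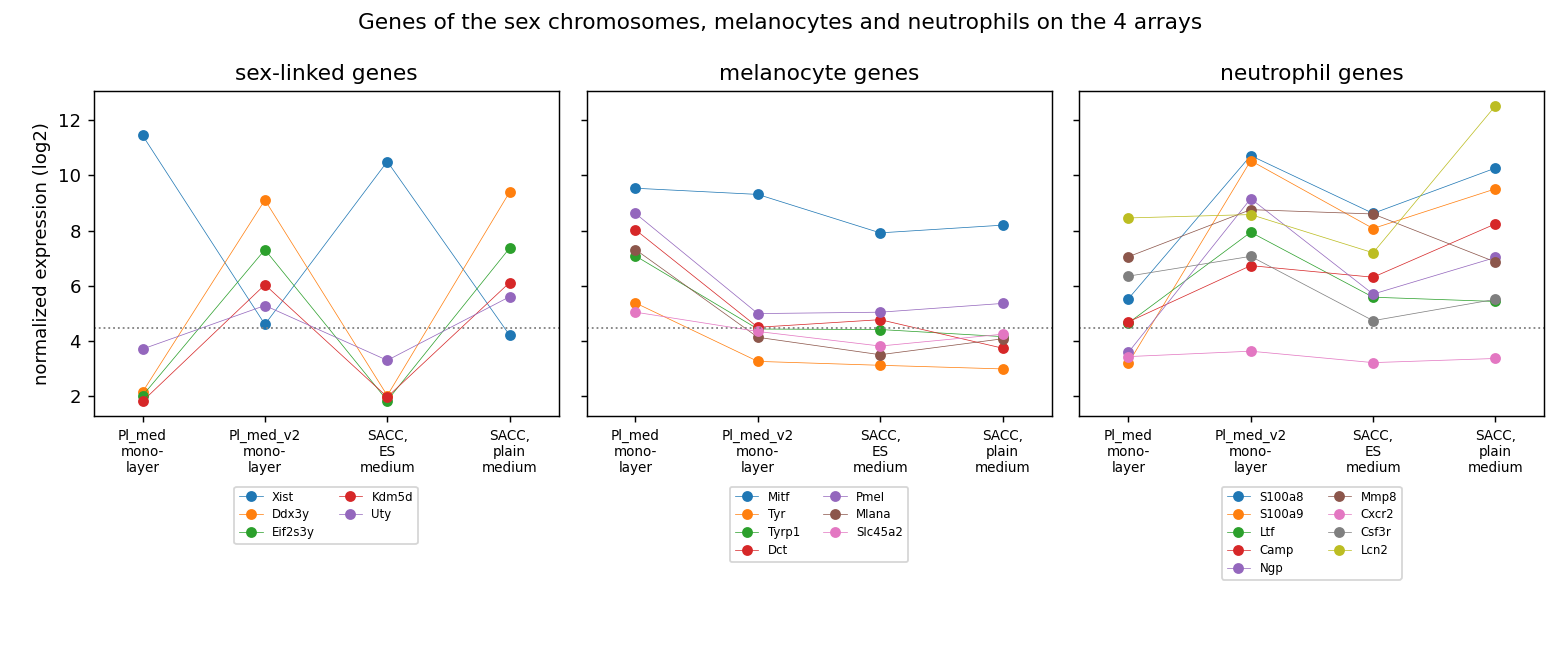
Normalized expression (log2, y axis) of each sex-linked, melanocyte and neutrophil gene on the 4 arrays (x axis), 1 point per gene and array. Thin lines join the points of a gene and the dotted line is the array median of 4.45. The sex-linked genes split the arrays by table, all 7 melanocyte genes are highest on the Pl_med monolayer, and 7 of 9 neutrophil genes are highest on the Pl_med_v2 monolayer.

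Both monolayers had the signature of macrophages and mesenchymal stroma. All 20 macrophage genes lay above the array median on both, with a median of 11.98 on Pl_med and 12.25 on Pl_med_v2. All 21 fibroblast and matrix genes did so too, with medians of 10.44 on Pl_med and 9.96 on Pl_med_v2. Ptprc, the pan-leukocyte antigen CD45, had 11.28 on Pl_med and 10.66 on Pl_med_v2. Lymphoid and erythroid genes were low in part: 7 of 8 NK cell genes, 7 of 9 erythroid genes, 5 of 9 B cell genes and 5 of 10 T cell genes lay below the median on both arrays. Of the epithelial genes, 5 of 6 were below the median on both. In such bulk RNA, fewer cells of a type and less RNA per cell cannot be told apart.

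**Figure D3:**
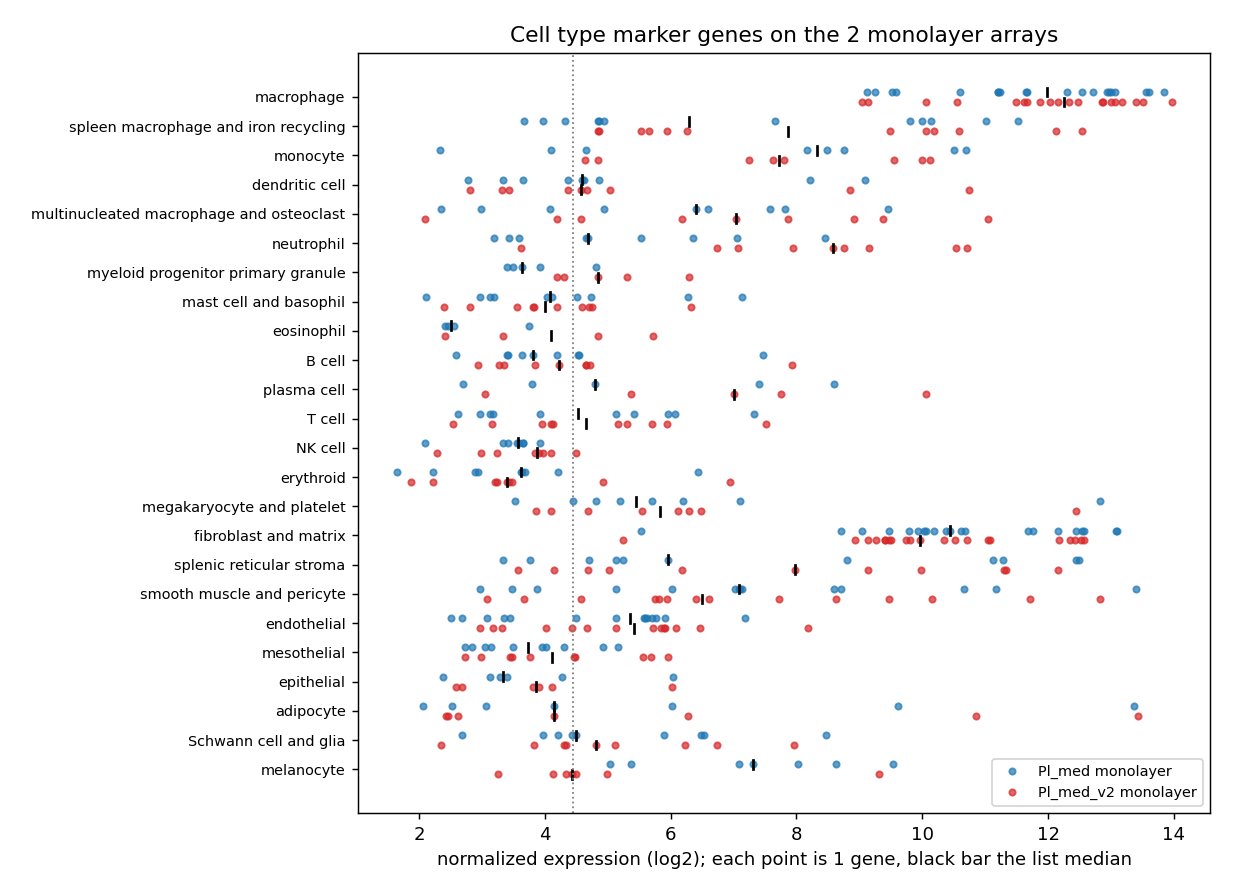
Normalized expression (log2, x axis) of cell type marker genes on the Pl_med monolayer (blue, upper row of each list) and the Pl_med_v2 monolayer (red, lower row), with the list median as a black bar and the array median of 4.45 as a dotted line. Macrophage and fibroblast lists sit high on both arrays, the melanocyte list is shifted up on Pl_med and the neutrophil list on Pl_med_v2.

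The core macrophage genes were close to each other on the 2 arrays. Csf1r, the receptor that keeps macrophages alive, had 13.55 on Pl_med and 12.86 on Pl_med_v2. Adgre1, the F4/80 antigen, had 11.21 on Pl_med and 11.48 on Pl_med_v2. Lyz2, a lysozyme, had 13.84 on Pl_med and 13.96 on Pl_med_v2. None of the 20 genes was 2-fold higher and 2 were 2-fold lower, against 3.92% and 4% of all genes, and the list median of -0.09 lay near the 0.0071 of all genes. The 2 were Cd68, a lysosomal glycoprotein, at 11.64 on Pl_med and 13.07 on Pl_med_v2, and Trem2, a lipid receptor, at 9.25 on Pl_med and 12.03 on Pl_med_v2. Both were lower by a like amount on the SACC array of the same table, by -1.28 for Cd68 and -2.73 for Trem2, and a dimmer Trem2 probe set differed by -0.59. Mrc1, the mannose receptor, had 11.66 on Pl_med and 11.62 on Pl_med_v2.

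Most genes of the spleen's own macrophages were lower on Pl_med. Of 12 genes of spleen macrophages and iron recycling, 8 were 2-fold lower and none 2-fold higher, with a median difference of -1.14 against 0.0071 for all genes. Hmox1, the heme oxygenase that opens the heme ring, had 10.14 on Pl_med and 12.13 on Pl_med_v2. Spic, the transcription factor on which red pulp macrophages depend, had 3.97 on Pl_med and 5.66 on Pl_med_v2. Axl, a receptor for dying cells, had 7.66 on Pl_med and 9.49 on Pl_med_v2, although its other probe set differed by only -0.24. Treml4, Marco, Cd163 and Cd5l differed by -1.39, -1.21, -1.19 and -1.01. Slc40a1, the iron exporter ferroportin, stood on the other side at 11.02 on Pl_med and 10.19 on Pl_med_v2, while its second probe set differed by -0.52. Between the SACC arrays the list median was -0.34. Only 4 of the 8 remained 2-fold lower with the values as deposited.

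Genes of fused macrophages and osteoclasts were also 2-fold lower on Pl_med in 5 of 9 cases, against 4% of all genes, with a median of -1.09. Acp5, the tartrate-resistant acid phosphatase, had 6.40 on Pl_med and 9.38 on Pl_med_v2. Atp6v0d2, a proton pump subunit that takes part in cell fusion, had 9.46 on Pl_med and 11.05 on Pl_med_v2. Dcstamp, a membrane protein that cells need to fuse, had 4.94 on Pl_med and 6.18 on Pl_med_v2, and Ctsk, a collagen-degrading protease, 7.82 on Pl_med and 8.91 on Pl_med_v2. The SACC arrays had the opposite order, with a list median of 0.95 and an Acp5 difference of 1.25. Of the leukocyte integrins, Itgax (CD11c) and Itgam (CD11b) were lower as well. Itgax had 8.21 on Pl_med and 10.75 on Pl_med_v2, and Itgam had 8.48 on Pl_med and 10.12 on Pl_med_v2. Other dendritic cell genes gave no such difference. Flt3, their growth factor receptor, had 4.59 on Pl_med and 4.36 on Pl_med_v2. Irf8, a transcription factor of dendritic cells and monocytes, had 9.10 on Pl_med and 8.85 on Pl_med_v2. Of 8 monocyte genes, Itgam among them, 1 was 2-fold higher, 2 were 2-fold lower and 5 were within 2-fold. The shares of all genes were 3.92% higher and 4% lower. In all, 4 monocyte genes were higher and 4 lower, with a median of 0.16.

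Some genes of antigen presentation were higher on Pl_med. H2-Aa, an MHC class II chain, had 8.66 on Pl_med and 6.18 on Pl_med_v2, and its 4 probe sets differed by between 0.04 and 2.71. Cd74, the invariant chain that escorts class II molecules, had 8.01 on Pl_med and 6.34 on Pl_med_v2. H2-Ab1, the partner chain of H2-Aa, had 7.65 on Pl_med and 6.88 on Pl_med_v2, with a lowest probe set difference of -0.70. Of 8 class II genes, 2 were 2-fold higher, against 3.92% of all genes, and none was 2-fold lower. F13a1, a clotting factor of monocytes and macrophages, had 10.70 on Pl_med and 9.55 on Pl_med_v2.

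Neutrophil genes were among the most different of all. S100a9 and S100a8, the calcium-binding proteins that fill the neutrophil cytosol, had 3.19 and 5.53 on Pl_med, against 10.53 and 10.72 on Pl_med_v2. The S100a9 value on Pl_med lay below the array median. Ngp, a neutrophil granule protein, had 3.58 on Pl_med and 9.16 on Pl_med_v2. Ltf, the iron-binding lactoferrin of secondary granules, had 4.65 on Pl_med and 7.94 on Pl_med_v2. In all, 6 of 9 neutrophil genes were 2-fold lower, against 4% of all genes, and all 9 were lower, with a median of -2.04. The receptors did not share the difference: Csf3r, the receptor for the growth factor of neutrophils, differed by -0.72, and Cxcr2, their chemokine receptor, by -0.20, at a level below the array median on both. Lcn2, the iron-siderophore carrier lipocalin, had 8.46 on Pl_med and 8.58 on Pl_med_v2.

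The granule genes of earlier myeloid cells had less signal but the same order. Mpo, myeloperoxidase, had 3.49 on Pl_med and 4.84 on Pl_med_v2. Elane, neutrophil elastase, had 3.93 on Pl_med and 5.30 on Pl_med_v2, and Prtn3, proteinase 3, 4.82 on Pl_med and 6.29 on Pl_med_v2. Of 5 such genes, 3 were 2-fold lower, and the list median was -1.35. The cysteine protease inhibitors Stfa2l1 and Stfa3, which myeloid cells make, were among the 15 lowest genes at -4.99 and -3.79. Chil3, a chitinase-like protein of granulocyte precursors and some macrophages, had 2.34 on Pl_med and 7.63 on Pl_med_v2. Between the SACC arrays the neutrophil median was -1.33, with 7 of 9 genes of the same sign, and Ltf differed by 0.15. The earlier granule genes had a median of -2.39 there, with the same sign for all 5. The SACC array in ES medium still had 8.07 for S100a9 and 8.62 for S100a8, so the Pl_med monolayer had the lowest signal of the 4 arrays for both.

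Single genes of further lineages also separated the cultures. Jchain, which joins the antibody chains of plasma cells, had 3.80 on Pl_med and 7.76 on Pl_med_v2, and it split the SACC arrays in the same way, at 3.58 in ES medium and 8.40 in plain medium. Of 5 plasma cell genes 2 were 2-fold lower and 3 within 2-fold, with a median of -0.57 and a highest difference of 0.39. Siglecf and Ccr3, surface receptors of eosinophils, had 2.45 and 3.74 on Pl_med, against 4.85 and 5.71 on Pl_med_v2. The other 2 of 4 eosinophil genes were within 2-fold and below the array median on both. Cpa3, a carboxypeptidase of mast cells, had 6.28 on Pl_med and 4.74 on Pl_med_v2. The other mast cell genes were within 2-fold, among them the proteases Cma1 at 0.15 and Tpsb2 at 0.32. Pf4, a platelet chemokine that macrophages can also make, had 12.82 on Pl_med and 12.45 on Pl_med_v2.

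Pigment cell genes were found on the Pl_med monolayer. Melanocytes derive from the neural crest and reside in several internal organs besides skin. Pmel, which builds the fibrils on which pigment is laid down, had 8.62 on Pl_med and 4.99 on Pl_med_v2. Dct and Tyrp1, enzymes of melanin synthesis, had 8.03 and 7.08 on Pl_med, against 4.50 and 4.43 on Pl_med_v2. Mlana, a melanosome protein, had 7.31 on Pl_med and 4.13 on Pl_med_v2, and Tyr, the rate-limiting tyrosinase, 5.38 on Pl_med and 3.26 on Pl_med_v2. Of 7 melanocyte genes, 5 were 2-fold higher, against 3.92% of all genes, with a median of 2.65. All 7 were highest on Pl_med among the 4 arrays, and the SACC list median was -0.28.

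Mitf, the transcription factor of melanocytes that macrophages and osteoclasts also express, was within 2-fold, with 9.53 on Pl_med and 9.31 on Pl_med_v2. All 3 Tyrp1 probe sets were higher, by 2.65 to 5.64. Schwann cells, which also come from the neural crest, left no such difference: 9 of 9 genes were within 2-fold. Sox10, a transcription factor of both lineages, had 6.48 on Pl_med and 6.22 on Pl_med_v2, although 1 of its 3 probe sets differed by 1.34.

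Start-site windows of Dct and Tyrp1 are shown because both genes were among those with the largest differences and both hold an M-box, the motif bound by Mitf. The windows run from 250 bases before to 50 after the start, on RefSeq's GRCm38.p6 assembly, 5′ to 3′ in the direction of the gene, and capitals mark TCATGTG on either strand.
Dct (chr14:118052197-118052496, minus strand): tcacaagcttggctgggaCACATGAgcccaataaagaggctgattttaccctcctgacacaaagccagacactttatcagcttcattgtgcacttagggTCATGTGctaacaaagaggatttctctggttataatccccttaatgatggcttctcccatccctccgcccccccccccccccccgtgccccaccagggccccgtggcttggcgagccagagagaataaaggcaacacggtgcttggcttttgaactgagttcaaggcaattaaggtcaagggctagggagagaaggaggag
Tyrp1 (chr4:80833963-80834262, plus strand): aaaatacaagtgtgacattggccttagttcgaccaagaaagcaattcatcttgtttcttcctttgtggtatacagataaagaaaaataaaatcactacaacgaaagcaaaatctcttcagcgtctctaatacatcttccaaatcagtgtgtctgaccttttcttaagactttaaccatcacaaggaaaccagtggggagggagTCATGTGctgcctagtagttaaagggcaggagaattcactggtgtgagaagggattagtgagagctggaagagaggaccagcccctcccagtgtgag
The motif was in 3 of 6 windows of the 4 melanocyte genes that matched the RefSeq table (50%) and in 3.77% of all 32851 windows. A match is a string of letters and no measured binding.

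Most fibroblast genes were somewhat higher on Pl_med. Of the 21 fibroblast and matrix genes 17 were lowest on Pl_med_v2 among the 4 arrays and the other 4 on Pl_med, while all 21 were highest on a SACC array. Col1a1 and Col3a1, fibrillar collagens, had 10.44 and 13.08 on Pl_med, against 9.75 and 12.17 on Pl_med_v2. Pdgfrb, the receptor for a growth factor of mesenchyme, had 10.62 on Pl_med and 9.13 on Pl_med_v2, and Pdgfra 10.18 on Pl_med and 9.48 on Pl_med_v2. In this list 17 genes stayed within 2-fold, 4 were 2-fold higher and none lower, and the median was 0.33. The other 3 were Col5a2 at 1.08, the proteoglycan Dcn at 1.06, and Fbn1, a fibrillin, at 1.11, whose second probe set differed by -0.20.

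Reticular genes of the spleen split in both directions. Grem1, an inhibitor of bone morphogenetic proteins, had 12.49 on Pl_med and 9.98 on Pl_med_v2. Cxcl12, the chemokine that retains leukocytes, had 12.44 on Pl_med and 11.30 on Pl_med_v2, with 1 of its 3 probe sets at -0.48. Bst1, an ADP-ribosyl cyclase of stromal and myeloid cells, had 5.96 on Pl_med and 7.98 on Pl_med_v2. The transcription factors that specify the spleen were low: Tlx1 had 3.76 on Pl_med and 5.02 on Pl_med_v2, Nkx2-3 had 5.14 on Pl_med and 6.18 on Pl_med_v2, and Tcf21 had 5.24 on Pl_med and 4.15 on Pl_med_v2. Of 11 genes, 3 were higher, 3 lower and 5 within 2-fold. The higher ones were Grem1, Cxcl12 and Tcf21, and the lower ones Bst1, Tlx1 and Nkx2-3, the last with a probe set at 0.05.

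Contractile and vessel genes were mostly within 2-fold. Acta2, smooth muscle actin, had 13.39 on Pl_med and 12.83 on Pl_med_v2, and Tagln, an actin-binding protein, 11.17 on Pl_med and 11.71 on Pl_med_v2. Of 14 genes of smooth muscle and pericytes, Notch3 and the actin regulator Lmod1 were 2-fold higher, at 1.32 and 1.14, and the signalling regulator Rgs5 was lower at -1.10. Notch3 had a second probe set at -0.02. Of 14 endothelial genes 13 were within 2-fold, but 11 were lower on Pl_med, with a median of -0.21. The gene past 2-fold was Emcn, a sialomucin of veins and capillaries, with 3.09 on Pl_med and 5.90 on Pl_med_v2. Eng and Esam differed by -0.999 and -0.85, and Eng had a second probe set at 0.23. Among the 3 higher genes was Cdh5, the cadherin of endothelial junctions, with 5.70 on Pl_med and 5.14 on Pl_med_v2. Its second probe set differed by -0.72. Wt1, a transcription factor of the mesothelium that covers the spleen, had 4.30 on Pl_med and 5.57 on Pl_med_v2. On the SACC arrays Wt1 had 8.19 in ES medium and 8.14 in plain medium. Of 10 mesothelial genes 1 was 2-fold lower and 9 were within 2-fold, and 5 lay below the array median on both monolayers.

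Dividing cells left a weaker signal on Pl_med. All 25 mitosis genes were lower on Pl_med than on Pl_med_v2, 20 of them at least 2-fold, with a median of -1.41 against 0.0071 for all genes, of which 4% were 2-fold lower. Ube2c, the ubiquitin-conjugating enzyme that serves the anaphase-promoting complex, had 6.85 on Pl_med and 9.11 on Pl_med_v2. Ccnb2, a B-type cyclin that drives entry into mitosis, had 6.07 on Pl_med and 8.03 on Pl_med_v2. Kif20a, a kinesin of cytokinesis, had 4.49 on Pl_med and 6.78 on Pl_med_v2. Mki67, the usual mark of cycling cells, had 8.12 on Pl_med and 9.23 on Pl_med_v2. All but 1 of the 25 were above the array median on both arrays, so neither monolayer lacked the signal of dividing cells.

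The same held for the kinases and for chromosome structure, with some disagreement among probe sets. Aurkb, a kinase of the chromosomal passenger complex, had 5.36 on Pl_med and 7.03 on Pl_med_v2. Aurka, a spindle pole kinase, had 5.68 on Pl_med and 7.30 on Pl_med_v2, while its second probe set differed by 0.43. Top2a, the topoisomerase that untangles chromosomes, had 7.24 on Pl_med and 8.81 on Pl_med_v2, with 1 of its 3 probe sets at 0.06. Cdc20, the activator of the anaphase-promoting complex, had 7.99 on Pl_med and 8.57 on Pl_med_v2. On the SACC arrays the order was turned round for all 25 genes, with a list median of 0.62. Of the 4 arrays, Pl_med was the lowest for 21 of the 25 genes and Pl_med_v2 the highest for 17.

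DNA replication genes differed in the same direction and by less. Of 24 genes 23 were lower on Pl_med and 12 at least 2-fold, with a median of -0.98. Tk1, the thymidine kinase that makes a DNA precursor, had 6.22 on Pl_med and 8.29 on Pl_med_v2. Pcna, the sliding clamp of DNA polymerases, had 10.33 on Pl_med and 12.27 on Pl_med_v2. Mcm6, a subunit of the replicative helicase, had 8.14 on Pl_med and 9.97 on Pl_med_v2, and its 3 probe sets were all lower, by -1.83 to -0.46. Cdc6, which loads that helicase at origins, had 4.15 on Pl_med and 5.77 on Pl_med_v2. Cdc45, a helicase partner, and Rfc4, a clamp loader subunit, differed by -1.55 and -1.36, each with a second probe set of opposite sign at 0.33 and 0.21. Fen1, the flap endonuclease, had 9.53 on Pl_med and 9.55 on Pl_med_v2, although a dimmer probe set differed by -1.75. Pl_med_v2 was the highest of the 4 arrays for 20 of the 24 genes, and the SACC list median was 0.64. The difference was smaller in S phase DNA repair. Of 11 such genes 9 were lower on Pl_med but only 1 at least 2-fold, with a median of -0.59.

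**Figure D4:**
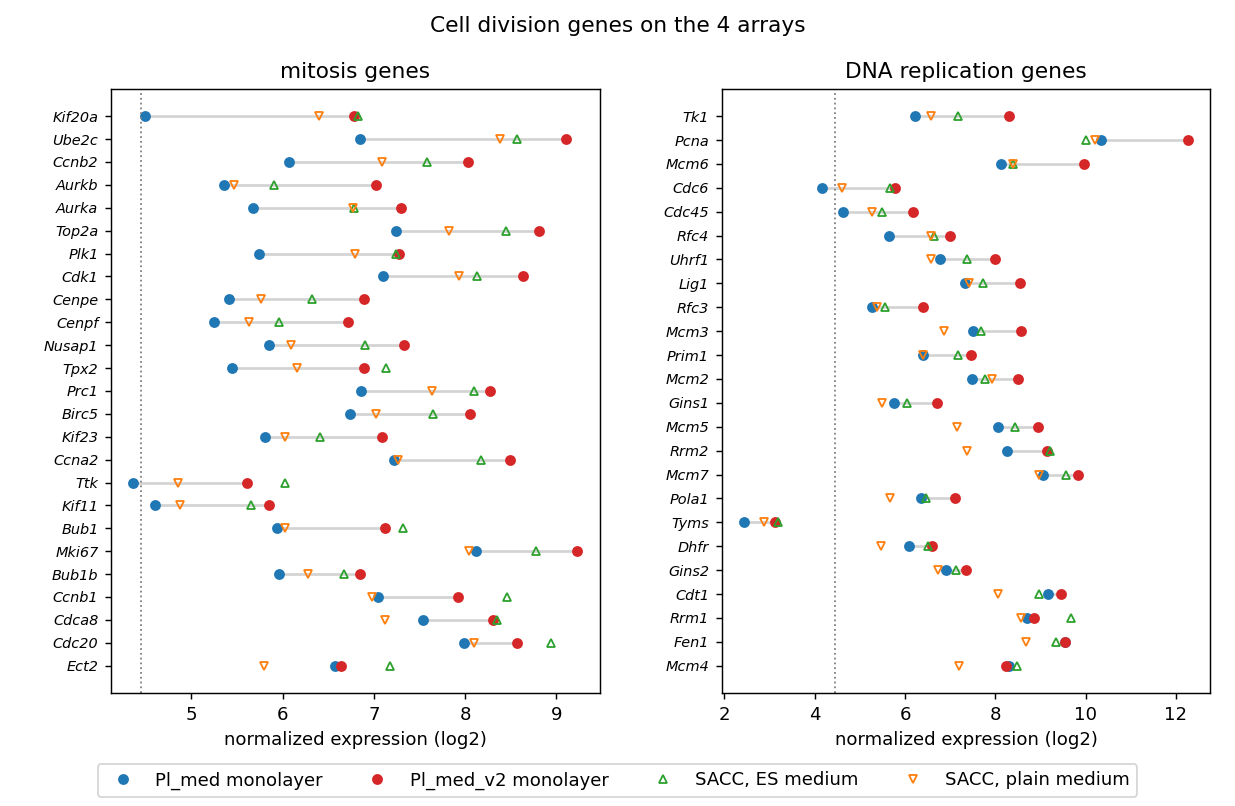
Normalized expression (log2, x axis) of each mitosis and DNA replication gene (y axis) on the Pl_med monolayer (blue), the Pl_med_v2 monolayer (red) and the SACC arrays (open triangles), with a grey line joining the 2 monolayers and a dotted line at the array median of 4.45. Blue lies left of red for all 25 mitosis genes and for 23 of 24 replication genes, and the SACC array in ES medium lies right of that in plain medium for all 25 mitosis genes.

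The start-site windows of division genes with large differences are shown because these genes are known to be switched together through short motifs. In mitosis genes the CHR element, bound by the MuvB complexes, and the CCAAT box, bound by NF-Y, stand near the start. Capitals mark TTTGAA or TTCGAA (CHR) and CCAAT on either strand, in windows of the same assembly and length as above.
Ube2c (chr2:164769679-164769978, plus strand): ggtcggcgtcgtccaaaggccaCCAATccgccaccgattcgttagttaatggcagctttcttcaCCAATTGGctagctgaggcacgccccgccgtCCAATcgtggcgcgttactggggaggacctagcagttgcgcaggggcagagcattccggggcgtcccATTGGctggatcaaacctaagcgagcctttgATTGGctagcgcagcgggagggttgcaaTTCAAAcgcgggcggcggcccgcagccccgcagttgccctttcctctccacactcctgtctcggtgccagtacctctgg
Ccnb2 (chr9:70421505-70421804, minus strand): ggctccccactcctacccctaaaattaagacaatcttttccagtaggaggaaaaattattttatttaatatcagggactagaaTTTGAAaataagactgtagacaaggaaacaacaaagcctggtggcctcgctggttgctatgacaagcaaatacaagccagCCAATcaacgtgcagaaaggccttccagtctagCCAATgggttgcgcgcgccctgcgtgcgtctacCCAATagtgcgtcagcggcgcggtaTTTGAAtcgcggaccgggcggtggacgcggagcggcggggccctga
Aurka (chr2:172370521-172370820, minus strand): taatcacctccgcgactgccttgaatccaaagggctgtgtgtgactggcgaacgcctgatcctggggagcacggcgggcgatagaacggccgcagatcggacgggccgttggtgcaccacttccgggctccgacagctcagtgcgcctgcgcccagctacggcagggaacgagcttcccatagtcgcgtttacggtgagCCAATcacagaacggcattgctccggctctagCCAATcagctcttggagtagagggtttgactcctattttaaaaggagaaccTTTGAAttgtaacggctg
A CHR match was in 19 of 23 windows of the 21 mitosis genes in the RefSeq table (82.6%) and in 19.2% of all windows. CCAAT was in 21 of the 23 (91.3%) and in 37.4% of all windows. In the DNA replication genes, capitals mark E2F motifs (TTTCCCGC, TTTGGCGC, TTTCGCGC or TTTGCCGC) on either strand.
Mcm6 (chr1:128359656-128359955, minus strand): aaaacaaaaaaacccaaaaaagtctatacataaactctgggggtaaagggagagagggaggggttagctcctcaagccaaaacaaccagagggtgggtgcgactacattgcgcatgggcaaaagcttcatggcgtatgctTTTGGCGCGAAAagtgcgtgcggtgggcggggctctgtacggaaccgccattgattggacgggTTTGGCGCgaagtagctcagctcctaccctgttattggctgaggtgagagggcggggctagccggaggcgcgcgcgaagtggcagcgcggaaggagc
Cdc6 (chr11:98907901-98908200, plus strand): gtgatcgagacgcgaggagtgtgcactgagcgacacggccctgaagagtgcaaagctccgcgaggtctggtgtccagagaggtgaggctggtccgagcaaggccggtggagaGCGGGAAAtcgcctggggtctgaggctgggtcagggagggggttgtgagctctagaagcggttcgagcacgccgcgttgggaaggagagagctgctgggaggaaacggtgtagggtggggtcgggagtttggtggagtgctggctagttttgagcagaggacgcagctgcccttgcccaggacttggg
Rfc3 (chr5:151651159-151651458, minus strand): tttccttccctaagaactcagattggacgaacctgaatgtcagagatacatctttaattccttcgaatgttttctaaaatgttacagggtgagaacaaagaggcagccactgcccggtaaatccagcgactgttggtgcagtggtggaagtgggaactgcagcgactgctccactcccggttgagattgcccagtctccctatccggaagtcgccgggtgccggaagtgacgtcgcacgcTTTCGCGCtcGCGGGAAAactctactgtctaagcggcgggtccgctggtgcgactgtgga
An E2F match was in 10 of 25 windows of 20 replication genes (40%) and in 2.26% of all windows, against 1 of 23 mitosis windows (4.35%). Rfc3, a clamp loader subunit, was shown for its match and was not named by its value. The motif counts describe the lists and not the 2 cultures.

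Regulators of the G1 phase mostly stayed within 2-fold. Of 16 G1 cyclins, kinases and E2F factors 14 were within 2-fold, with a median of -0.27. Ccnd1, cyclin D1, had 9.98 on Pl_med and 9.87 on Pl_med_v2. Ccnd2, cyclin D2, had 10.58 on Pl_med and 9.42 on Pl_med_v2, but its 7 probe sets ran from -1.04 to 2.17. E2f2 had 5.90 on Pl_med and 7.04 on Pl_med_v2 with a second probe set at 0.48, and E2f1 had 6.91 on Pl_med and 7.49 on Pl_med_v2. Of 7 inhibitors of these kinases 1 was 2-fold higher and 6 were within 2-fold. In all, 4 were higher and 3 lower, with a median of 0.016. Cdkn1b (p27), the 2-fold higher one, had 9.42 on Pl_med and 8.27 on Pl_med_v2, higher in both of its probe sets. Cdkn2d was on the other side, at -0.70. Cdkn1a (p21), a target of p53, had 11.10 on Pl_med and 10.77 on Pl_med_v2. Of 12 p53 targets 11 were within 2-fold, and Btg2, an antiproliferative factor, was higher at 9.46 on Pl_med and 8.27 on Pl_med_v2.

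Inflammatory mediators were mixed. Of 16 genes 7 were 2-fold higher on Pl_med and 2 were 2-fold lower, against 3.92% and 4% of all genes. The other 7 were within 2-fold, and the list median was 0.75. Cxcl1 and Cxcl2, chemokines that attract neutrophils, had 9.20 and 10.55 on Pl_med, against 7.05 and 8.56 on Pl_med_v2. Il6 had 10.57 on Pl_med and 8.80 on Pl_med_v2, and Il1b had 6.68 on Pl_med and 5.04 on Pl_med_v2. The chemokine Ccl3 had 10.39 on Pl_med and 9.0 on Pl_med_v2. The same interleukin-1 family held the genes of opposite order: Il1rn, the receptor antagonist that blocks interleukin-1, had 6.14 on Pl_med and 9.44 on Pl_med_v2, and Il1a 2.77 on Pl_med and 4.78 on Pl_med_v2. All 3 Il1rn probe sets were lower, by -5.24 to -2.53. Between the SACC arrays the list median was -0.53, and Il1rn and Il1a were lower there too, by -1.07 and -2.40.

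Immediate early genes, which respond to growth factors and to handling within minutes, were mostly within 2-fold. Egr1 had 12.73 on Pl_med and 10.91 on Pl_med_v2, and Fos had 12.82 on Pl_med and 12.03 on Pl_med_v2. Of 14 such genes 3 were 2-fold higher (Egr1, Egr3 and Ier2), 11 within 2-fold and none 2-fold lower, with a median of 0.65, while the SACC median was -0.92. Junb, a partner of Fos, was on the other side at 9.61 on Pl_med and 10.58 on Pl_med_v2. The inducible heat shock gene Hspa1b had 10.15 on Pl_med and 7.17 on Pl_med_v2, and its neighbour Hspa1a, a near-identical copy with which it may share signal, 7.19 on Pl_med and 5.01 on Pl_med_v2. Both were higher on the SACC array of the same table too, by 1.52 and 1.26. The other 6 heat shock genes were within 2-fold.

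Several interferon-stimulated genes were lower on Pl_med. Of 17 genes 8 were 2-fold lower, against 4% of all genes. The other 9 were within 2-fold and none was 2-fold higher, with a median of -0.69. The 3 members with a higher value on Pl_med, chosen after their values were seen, were Iigp1 at 0.93, Gbp2 at 0.69 and Ifih1 at 0.68. Irf7, the transcription factor that amplifies the response, had 4.84 on Pl_med and 6.58 on Pl_med_v2. Ifit3 and Ifit2, which bind viral RNA, had 4.68 and 5.76 on Pl_med, against 6.09 and 7.07 on Pl_med_v2. Usp18, a brake on interferon signalling, had 3.79 on Pl_med and 5.20 on Pl_med_v2, and Oas1a, an RNA sensor, 8.18 on Pl_med and 9.29 on Pl_med_v2. Pl_med was the lowest of the 4 arrays for 12 of the 17 genes, and the SACC median was 0.39.

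Growth factors of the insulin-like family were higher on Pl_med in several cases. Igf2, a fetal growth factor, had 6.66 on Pl_med and 4.28 on Pl_med_v2, with a second probe set at 0.16. H19, the RNA of the same imprinted locus, had 6.83 on Pl_med and 5.58 on Pl_med_v2. The binding proteins Igfbp3 and Igfbp5 had 9.71 and 4.93 on Pl_med, against 7.77 and 2.72 on Pl_med_v2. Igfbp2 had the opposite order at 6.32 on Pl_med and 7.78 on Pl_med_v2. Of 11 genes 5 were 2-fold higher and 1 was 2-fold lower, against 3.92% and 4% of all genes, with a median of 0.78. Igfbp4, higher at 1.14, had 6 probe sets between -1.44 and 1.16. The SACC arrays had the same order for Igf2, H19 and Igfbp5, at 1.96, 1.26 and 2.10.

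The medians of metabolic lists were nearer to that of all genes than those of mitosis and DNA replication. Of 18 genes of cholesterol synthesis 16 were lower on Pl_med, with a median of -0.36 and a SACC median of 0.74. At least 2-fold lower were 3 of them, against 4% of all genes. Fdps, which makes farnesyl diphosphate, had 6.78 on Pl_med and 9.15 on Pl_med_v2, with a second probe set at 0.06. Msmo1 differed by -1.21 with a second probe set at 0.70, and Sqle, the squalene epoxidase, by -1.04. Of 15 genes of glycolysis and hypoxia Adm, the vasodilator peptide adrenomedullin, was higher at 9.0 on Pl_med and 6.27 on Pl_med_v2, and Eno1, an enolase, lower at 11.68 on Pl_med and 12.88 on Pl_med_v2. Of 14 genes of the lysosome and lipid handling 13 were within 2-fold. Cd36, a lipid scavenger receptor, was the lower one at 11.24 on Pl_med and 12.55 on Pl_med_v2. The 9 housekeeping genes were all within 2-fold, with a median of -0.13 and extremes of -0.98 for Rplp0, a ribosomal protein, and 0.73 for Tbp, the TATA-binding protein.

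**Figure D5:**
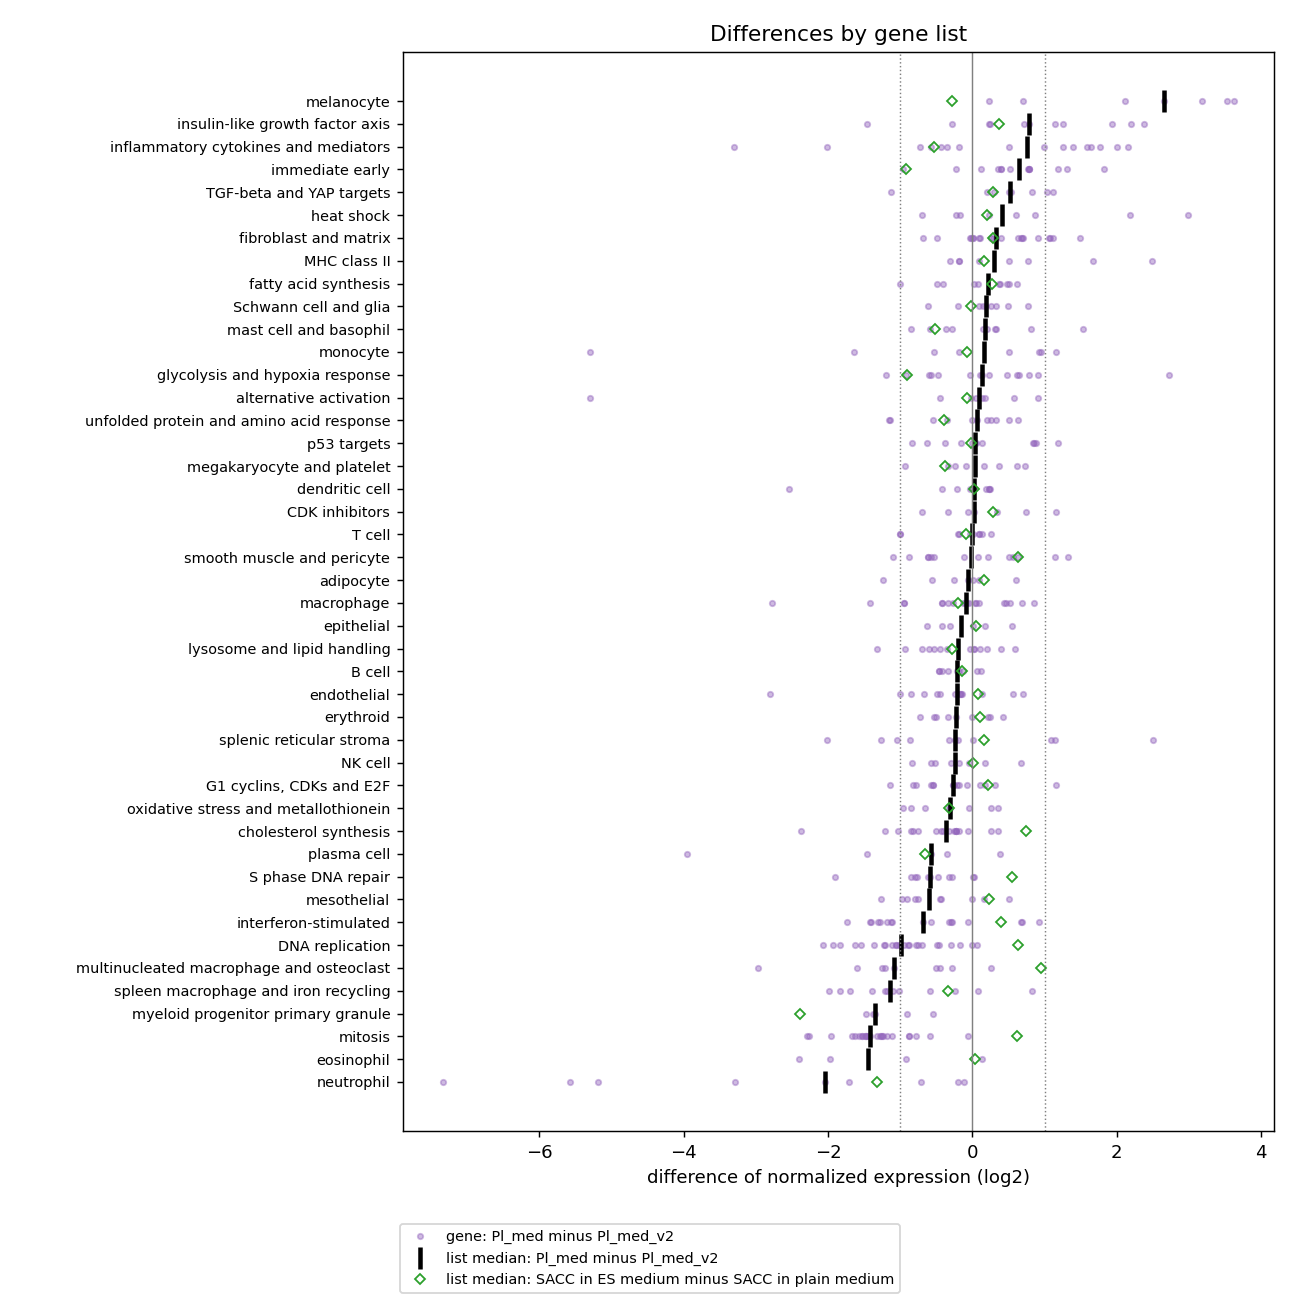
Differences Pl_med minus Pl_med_v2 (log2, x axis) of each gene (purple points) in 44 gene lists (y axis), ordered by the list median (black bars), with the median difference between the SACC arrays as green diamonds and dotted lines at 2-fold. The melanocyte list has the highest median, 2.65, and the neutrophil list the lowest, -2.04. The mitosis, replication and osteoclast lists have a negative monolayer median and a positive SACC median.

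The remaining genes with the largest differences came from several cell types. After Xist, the gene with the highest difference was Ccn3, a secreted matricellular protein, at 10.83 on Pl_med and 6.72 on Pl_med_v2, with probe set differences of 3.87 and 4.11. Col14a1, a fibril-associated collagen, had 8.22 on Pl_med and 5.32 on Pl_med_v2, with a lowest probe set difference of 0.07. Bmp2, a bone morphogenetic protein, had 6.73 on Pl_med and 4.09 on Pl_med_v2. Among the 15 highest, Ccn3 differed by 0.77 between the SACC arrays and Bmp2 by -1.67. Slco4a1, an organic anion transporter, and Afap1l2, an adaptor of the kinase Src, differed by 2.86 and 2.84 between the monolayers. Their second probe sets differed by 0.67 and 0.58. The linker histone gene H1f4 differed by 2.60. Between the SACC arrays Slco4a1, Afap1l2 and H1f4 differed by 4.14, 1.77 and 2.32.

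At the low end, Lat2, an adaptor of immune receptors, had 5.08 on Pl_med and 9.76 on Pl_med_v2, with 1 probe set. It split the SACC arrays likewise, at 4.27 in ES medium and 7.25 in plain medium. Agtr2, a receptor for angiotensin, had 2.53 on Pl_med and 5.88 on Pl_med_v2, while the SACC arrays had 8.16 in ES medium and 6.11 in plain medium. Rhov, a small GTPase, had 3.39 on Pl_med and 6.62 on Pl_med_v2, and it was also lower between the SACC arrays, by -1.62. Of the 90 genes 4-fold lower on Pl_med, 60 (66.7%) were 2-fold lower between the SACC arrays, as against 28 of the 58 genes 4-fold higher (48.3%).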

How the data were processed

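RNA was isolated on columns and labelled as biotinylated cRNA, per the labels' protocols. The authors deposited log2 values for each probe set, in 2 tables of 2 arrays. The submitters' processing notes name Transcriptome Analysis Console, and how it summarised and normalized the arrays, its version and build were not given in the sources used here. Deposited array medians were 4.59 for Pl_med and 4.34 for Pl_med_v2, and 4.52 and 4.35 for the SACC arrays in ES and plain medium, which points to a separate normalization of each table. The 4 columns were therefore quantile normalized together (Python 3.11.15, numpy 2.4.6, pandas 2.3.3), after rows were matched by probe set identifier. The procedure was checked on simulated data, with even random noise and the first table put on another scale as a whole. No probe set differences shared by the arrays of a table were simulated, so the check does not cover them.

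The deposited tables name genes: 36109 of the 45037 probe sets carry 1 symbol, and older symbols were updated through a RefSeq gene table. For each gene the brightest probe set on average over the 4 arrays was used, which gave 19747 genes. No filter on low values was applied, and there was no test, since each side is 1 array. Depth is not counted on arrays, so precision is limited by how few there are. The 73 olfactory and vomeronasal receptor genes, which spleen cells are not known to use, had differences with an SD of 0.326 and 2 past 2-fold. Of 7091 genes below the median on both arrays 1.49% differed 2-fold, and of 11668 above it on both 10.3%. The 46 gene lists held 518 genes, of which 507 were measured. The cultures, lists and tests were chosen with earlier results of these data known. Named genes were the 15 highest and 15 lowest differences among genes above the median on at least 1 monolayer array, without predicted models, receptor segments and the like, per list up to 6 members with the largest absolute difference and the 3 with the highest mean, and 15 fixed genes. Csf3r, Cxcr2, Gbp2, Ifih1, Iigp1, Rfc3, Sec61a1 and those so marked are named outside this rule, after their values were seen. Promoter windows came from RefSeq, and windows shown were those of the largest differences with a match. Alternatives are given with the limits.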

Additional observations from a re-analysis of the deposited data

How the results depend on the processing

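No paired analysis was possible because each culture is 1 array; for the same reason leaving out a replicate leaves no value. The series-wide table of deposited values was identical to the tables used, so that alternative was not run. Of the 127 named genes at least 2-fold different, 120 stayed so with the values as deposited, 114 after centring of the arrays, 125 with quantile normalization over the 2 monolayers and 108 with the mean over the probe sets of a gene, none with an opposite sign. An alternative chosen after seeing the data took the smallest absolute difference among a gene's probe sets above the median on at least 1 monolayer array: 104 stayed 2-fold and 10 turned sign, to -0.0285 for Ccnd2, 0.33 for Cdc45, 0.48 for E2f2, -0.20 for Fbn1, -0.72 for Igfbp4, 0.0494 for Nkx2-3, -0.0232 for Notch3, 0.42 for Psat1, 0.21 for Rfc4 and 0.14 for Tgfbi. The count of genes 2-fold higher, 774, became 488 with centred arrays, 405 with the mean over probe sets, 398 with the smallest difference, 58 at 4-fold and 2465 over all probe sets; the count lower, 789, became 524 with the smallest difference, 90 at 4-fold and 2706 over all probe sets. Members of the spleen macrophage list 2-fold lower numbered 4 with the values as deposited. Mitosis genes 2-fold lower, 20 in the main setting, numbered 14 with the mean over probe sets. DNA replication genes 2-fold lower, 12 in the main setting, numbered 8 with the smallest difference. The neutrophil median became -2.66 over genes above the array median, and the same with the smallest difference, and the melanocyte median 3.18 with the mean over probe sets. The cause of these shifts was not tested. Dim genes on both arrays carry no reliable order.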

Other observations

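Genes that escape X inactivation were set beside Xist after their values were seen. Kdm6a and Kdm5c, histone demethylases whose relatives lie on the Y chromosome, were higher on Pl_med by 1.18 and 1.03, and Eif2s3x and Ddx3x, the X-linked partners of Eif2s3y and Ddx3y, by 0.51 and 0.35 in their brightest probe sets, with a lowest probe set at -1.44 for Eif2s3x and -1.86 for Ddx3x. A Kdm5c probe set below the array median on both arrays differed by -0.19. Of 8 targets of TGF-beta and YAP signalling, the secreted protein Ccn1 had 11.60 on Pl_med and 10.49 on Pl_med_v2 and Amotl2, a junction protein, 9.08 on Pl_med and 8.04 on Pl_med_v2, while Tgfbi, a matrix protein, had 10.62 on Pl_med and 11.74 on Pl_med_v2, with probe sets between -1.91 and 0.14. Of 11 genes of the unfolded protein and amino acid response, Sdf2l1, a chaperone partner, and Psat1, an enzyme of serine synthesis, were lower on Pl_med at -1.15 each, the last with a second probe set at 0.42. The chaperone Hspa5 had 12.13 on both arrays, with probe sets between -0.27 and 0.75.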
